A study of Mus musculus with 2 samples.

Results

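The BAFF and APRIL system is a set of 5 genes of the tumour necrosis factor superfamily, 2 that encode ligands and 3 that encode receptors, chosen by name among the 32285 features of the count matrices. The ligands are Tnfsf13b, which encodes BAFF, and Tnfsf13, which encodes APRIL. The receptors are Tnfrsf13c (BAFF-R), Tnfrsf13b (TACI) and Tnfrsf17 (BCMA). They were read in cells from liver tumours of Crtc2-/- mice, with Crtc2+/+ mice as the control. Mice of both genotypes had received the liver carcinogen diethylnitrosamine (DEN) by intraperitoneal injection, at 25 mg/kg when 2 weeks old, were fed a diet that models non-alcoholic steatohepatitis (NASH) from week 8 to week 26, and were killed after week 26. The tumours were dissociated and their cells sequenced with droplet-based 3′ chemistry, in 1 library per genotype. The sources used here do not give the number of animals or tumours behind a library or the tissues in which Crtc2 was deleted, and genotype cannot be told apart from animal, tumour or library. With 1 library a genotype there was no test, and every interval below covers counting error only.

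BAFF and APRIL are cytokines made mainly by myeloid cells. BAFF binds all 3 receptors and, through BAFF-R, keeps naive B cells alive. APRIL binds TACI and BCMA but not BAFF-R, and BCMA supports the survival of plasma cells. BAFF-R acts mainly through NF-kappa-B-inducing kinase and the non-canonical NF-kappa-B pathway. CRTC2, the protein missing by design in the Crtc2-/- mice, is a coactivator of the cAMP-responsive transcription factor CREB.

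After filtering, 8906 Crtc2-/- cells with a median of 6560.5 unique molecular identifiers (UMIs, each standing for 1 captured transcript) were compared with 9354 Crtc2+/+ cells with a median of 7123 UMIs. The median mitochondrial share was 2.23% in Crtc2-/- cells and 1.85% in Crtc2+/+ cells, and 29 cell barcodes occurred in both libraries. Crtc2 itself gave 399 UMIs, or 5.41 counts per 1000000 UMIs (CPM), in the Crtc2-/- library and 615 UMIs, or 7.95 CPM, in the Crtc2+/+ library. The Crtc2 transcript was thus 0.681 times as high in the Crtc2-/- library (95% counting interval 0.599 to 0.774). The labels do not say which part of the gene was removed, so a 3′ tag outside that part would not check the genotype.

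Cells were read in 8 gates, each a threshold on summed UMIs per cell. They were macrophage (C1qa, C1qb and C1qc, at least 20), Sox5 myeloid (Sox5, at least 2, with Csf1r or Lyz2), monocyte (at least 1 UMI each of Ly6c2 and Ccr2), neutrophil (S100a8 and S100a9, at least 20), B (Cd79a and Cd79b, at least 2, with at most 5 Jchain), plasma (Jchain, at least 50), plasmacytoid dendritic cell or pDC (Siglech, at least 2) and T (Cd3d, Cd3e and Cd3g, at least 2). The macrophage gate held 1663 Crtc2-/- cells, 18.7% of the library, and 4943 Crtc2+/+ cells, 52.8%. The B gate held 1711 Crtc2-/- cells, 19.2%, and 788 Crtc2+/+ cells, 8.42%. The plasma gate held 32 Crtc2-/- cells and 0 of 9354 Crtc2+/+ cells, which allows a share of up to 0.0321%.

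The gates overlap, and that bears on every value of a ligand below. Both the B and the macrophage gate were passed by 474 Crtc2-/- cells and 234 Crtc2+/+ cells. Cd79a, which encodes a chain of the B cell receptor complex and is a gene of the gate itself, averaged 0.363 UMIs per cell in these Crtc2-/- cells and 0.171 in these Crtc2+/+ cells, against 9.36 and 8.57 in Crtc2-/- and Crtc2+/+ cells of the B gate alone. Both the pDC and the macrophage gate were passed by 1 Crtc2-/- cell and 176 Crtc2+/+ cells. In those 176 cells Ccr9, a pDC chemokine receptor, averaged 0.170 UMIs per cell, against 6.98 and 6.73 in Crtc2-/- and Crtc2+/+ cells of the pDC gate alone. Values are therefore also given for cells that passed a single gate, such as "macrophage-only" cells, of which there were 792 in the Crtc2-/- library and 4219 in the Crtc2+/+ library. In single-gate cells the defining markers were raised over the other gates for 6 of 6 macrophage genes, 6 of 7 monocyte genes, 5 of 5 neutrophil genes, 6 of 6 B cell genes, 7 of 7 pDC genes and 7 of 7 T cell genes in each library, and for 6 of 6 plasma cell genes in the Crtc2-/- library. By this count the macrophage list did not set macrophages apart from monocytes: monocyte-only cells raised 6 of its 6 genes in the Crtc2-/- library and 5 of 6 in the Crtc2+/+ library, at summed levels of 3330 CPM in Crtc2-/- and 5870 CPM in Crtc2+/+ cells against 15637 CPM in Crtc2-/- and 24857 CPM in Crtc2+/+ macrophage-only cells. The Sox5 gate was different. Its single-gate cells raised 3 of 8 myeloid genes in the Crtc2-/- library and 0 of 8 in the Crtc2+/+ library, and their 6 hepatocyte transcripts summed to 16243 CPM in Crtc2-/- cells and 4357 CPM in Crtc2+/+ cells. In the Crtc2-/- library monocyte-only cells raised 3 and macrophage-only cells 4 of the same 8 myeloid genes. Summed, these genes were 10932 CPM in Crtc2-/- and 1250 CPM in Crtc2+/+ single-gate Sox5 cells. Macrophage-only cells held 10759 CPM of them in the Crtc2-/- library and 11767 CPM in the Crtc2+/+ library. The myeloid label is therefore not borne out in Crtc2+/+ cells outside the macrophage gate. In Crtc2-/- cells there, myeloid and hepatocyte transcripts occur together, and the gate is named below by its rule alone.

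Tnfsf13b, the BAFF gene (ENSMUSG00000031497, chromosome 8, 10006467 to 10039072, plus strand, GRCm38), was far lower in Crtc2-/- than in Crtc2+/+ macrophages. In the macrophage gate it gave 391 UMIs in Crtc2-/- cells, or 18.2 CPM of the gate's total (16.5 to 20.1), and 9279 UMIs in Crtc2+/+ cells, or 186 CPM (182 to 189.7). The Crtc2-/- level was 0.0980 times the Crtc2+/+ level (0.0884 to 0.109), a log2 ratio of -2.79 after adding 10 CPM to each value. In macrophage-only cells it was 13.7 CPM (11.5 to 16.2) in the Crtc2-/- library and 195 CPM (190.5 to 199) in the Crtc2+/+ library, a log2 ratio of -3.11. The intervals lay far apart in both readings. A member was counted as past the fold where its log2 ratio was at least 1 in size with at least 20 UMIs over both libraries. In the macrophage gate 1 of the 3 members with that many UMIs, Tnfsf13b, was past the fold and lower, while 1.74% of all measured genes were past it and lower. In macrophage-only cells Tnfsf13b was again the 1 of 3 past it, against 1.79% of all genes.

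The difference showed both in the share of macrophages with a UMI and in the number of UMIs per cell. A lower mean level lowers both, so these counts do not tell fewer carrying cells from fewer copies per cell. No Tnfsf13b UMI was found in 82.6% of Crtc2-/- macrophages and 28.4% of Crtc2+/+ macrophages. Between 3 and 5 UMIs were found in 0.962% of Crtc2-/- macrophages and 23.7% of Crtc2+/+ macrophages. At least 6 UMIs were found in 1 Crtc2-/- macrophage and in 269 Crtc2+/+ macrophages, with a maximum of 6 in a Crtc2-/- cell and 18 in a Crtc2+/+ cell. The Crtc2-/- macrophages were not the shallower cells, with a median of 11191 UMIs against 8929 in Crtc2+/+ macrophages. With every cell thinned to 1000 UMIs, 1.86% of Crtc2-/- macrophages (1.27 to 2.64) and 18.1% of Crtc2+/+ macrophages (17.0 to 19.2) kept a Tnfsf13b UMI. B-only cells, read as background, kept one in 0.259% of Crtc2-/- cells and 0.189% of Crtc2+/+ cells after thinning. Before thinning the B-only shares were 1.55% at a median of 3960 UMIs in Crtc2-/- cells and 0.756% at 3438 UMIs in Crtc2+/+ cells. Tnfsf13b in Crtc2-/- macrophages was therefore above this B-only background. It did not stand clear of T cells, as Crtc2-/- macrophage-only cells held 13.7 CPM and Crtc2-/- T-only cells 12.9 CPM.

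**Figure D1:**
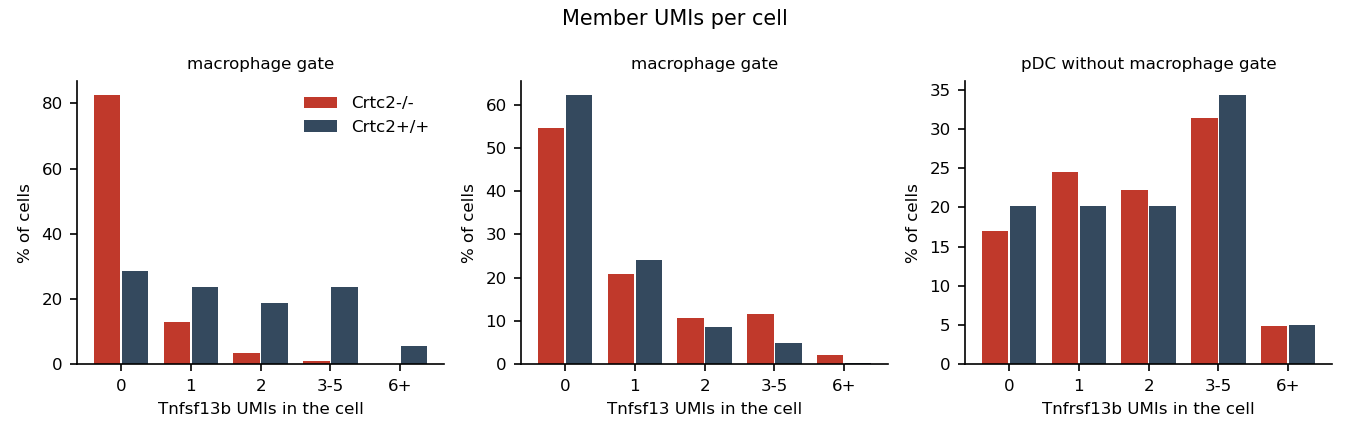
Percent of cells (y axis) by the number of UMIs of a gene in the cell (x axis) for Tnfsf13b and Tnfsf13 in the macrophage gate and for Tnfrsf13b in the pDC gate without macrophage-gate cells, with Crtc2-/- in red and Crtc2+/+ in blue. For Tnfsf13b, 82.6% of Crtc2-/- and 28.4% of Crtc2+/+ macrophages are at 0, while the Tnfrsf13b bars of the libraries stand at like heights.

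RefSeq annotates 2 promoter windows for Tnfsf13b in GRCm38.p6, which overlap, and 1 for Tnfsf13. The ligand windows are shown because the ligands stood apart in macrophages, one far lower and the other not lower in the Crtc2-/- library. Each runs from 250 bases before to 50 bases after an annotated start site. Capitals mark matches to an AP-1 site (TGANTCA) and to the core of an interferon-stimulated response element (GAAA, any 2 bases, GAAA), searched on both strands. The Tnfsf13b window is that of the downstream start site, at 10006633.
Tnfsf13b promoter, chr8:10006383-10006682, plus strand: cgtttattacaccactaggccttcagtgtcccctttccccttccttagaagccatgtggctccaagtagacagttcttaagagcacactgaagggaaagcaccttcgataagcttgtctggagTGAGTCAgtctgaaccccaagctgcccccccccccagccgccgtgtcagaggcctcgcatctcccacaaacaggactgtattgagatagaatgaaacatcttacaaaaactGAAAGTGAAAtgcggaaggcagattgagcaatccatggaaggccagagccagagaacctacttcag
Tnfsf13 promoter, chr11:69685505-69685804, minus strand: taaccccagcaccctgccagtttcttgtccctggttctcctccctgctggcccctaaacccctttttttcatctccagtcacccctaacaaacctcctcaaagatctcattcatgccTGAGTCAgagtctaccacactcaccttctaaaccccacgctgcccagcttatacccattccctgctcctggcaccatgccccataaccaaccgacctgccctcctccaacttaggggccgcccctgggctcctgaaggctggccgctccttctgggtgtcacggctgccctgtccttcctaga
The Tnfsf13b window shown holds the interferon element core at position -16 and the AP-1 match at position -127 from the start site. The other Tnfsf13b window, that of the start site at 10006467, holds no interferon element core. Its AP-1 match, the same site, lies at position 39, after the start site. The Tnfsf13 window holds an AP-1 match at position -133 from its start site. Of 32851 RefSeq promoter windows of the same length, 3.44% hold the interferon element core and 7.81% the AP-1 site. The core of a PU.1 site (GAGGAA), present in 28.3% of windows, and a kappa B site, present in 8.46%, were found in no ligand window. The cAMP response element (TGACGTCA), present in 1.79% of windows, and its shorter form (TGACG), present in 20.8%, were found in none of the 6 windows of the 5 members. A match is a string of letters and not a shown binding site, and the absence of one says nothing of the factor.

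The macrophage gate differed in make-up between the libraries, so Tnfsf13b was read within parts of it. Cells with at least 2 UMIs of Clec4f and Vsig4, genes of Kupffer cells (the resident macrophages of the liver), were 13.2% of Crtc2-/- macrophages (219 cells, 11.6 to 14.9) and 0.506% of Crtc2+/+ macrophages (25 cells, 0.328 to 0.746). In these cells Tnfsf13b was low in both libraries, at 3.37 CPM (13 UMIs) in Crtc2-/- cells and 14.7 CPM (6 UMIs) in Crtc2+/+ cells. Cells with at least 2 Sox5 UMIs were 40.1% of Crtc2-/- macrophages (667 cells) and 1.76% of Crtc2+/+ macrophages (87 cells). Within them Tnfsf13b was 31.9 CPM (27.9 to 36.3) in Crtc2-/- cells and 173 CPM (150.1 to 199) in Crtc2+/+ cells. Macrophage genes summed to 2729 CPM in these Crtc2-/- cells and 15880 CPM in these Crtc2+/+ cells, so the same threshold picked unlike cells. Leaving out both kinds left 793 Crtc2-/- and 4831 Crtc2+/+ macrophages, a reading added after the values were seen. In that remainder Tnfsf13b was 14.5 CPM in Crtc2-/- cells and 188 CPM in Crtc2+/+ cells, a log2 ratio of -3.01. The difference was thus as large without the cells past these thresholds as with them. The remainders were still unlike, as Kupffer cell genes summed to 1018 CPM in these Crtc2-/- cells and 11.95 CPM in these Crtc2+/+ cells. The part of cell make-up in the remaining difference was not tested.

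Other splits gave the same order. Macrophages with a UMI of Cxcl9 or Cxcl10, chemokines induced by interferon gamma, held 9.88 CPM of Tnfsf13b in Crtc2-/- cells and 180.3 CPM in Crtc2+/+ cells. Those with neither held 21.4 CPM in Crtc2-/- cells and 189.8 CPM in Crtc2+/+ cells. Macrophages that also passed the monocyte gate held 12.4 CPM in Crtc2-/- cells and 76.3 CPM in Crtc2+/+ cells. Among Crtc2+/+ macrophages those with monocyte genes and those with Kupffer genes were the low ones, while the Cxcl9 and Cxcl10 split made little difference.

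**Figure D2:**
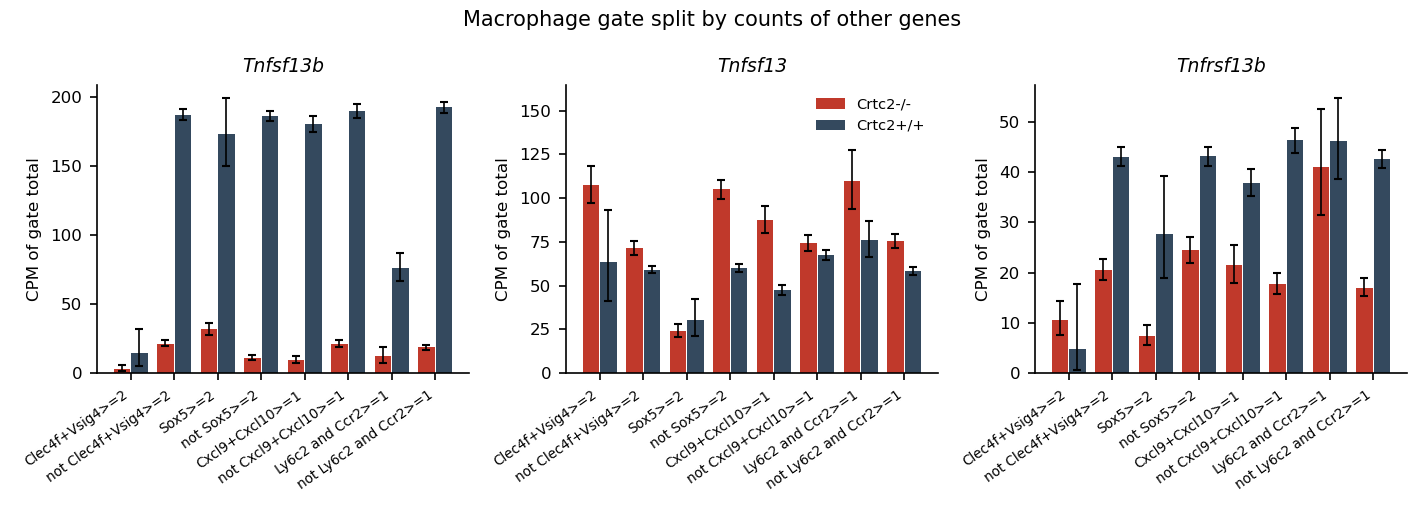
CPM of the gate total (y axis) of Tnfsf13b, Tnfsf13 and Tnfrsf13b in 8 parts of the macrophage gate (x axis), with Crtc2-/- in red and Crtc2+/+ in blue and bars for the exact Poisson 95% interval. Tnfsf13b is at or below 31.9 CPM in every Crtc2-/- part, and Tnfsf13 is lowest in macrophages with Sox5.

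In monocytes the Tnfsf13b difference was wide over the whole gate and narrow among single-gate cells. The whole monocyte gate held 6.69 CPM (5.23 to 8.44, 71 UMIs) in Crtc2-/- cells and 34.3 CPM (30.3 to 38.6, 268 UMIs) in Crtc2+/+ cells, a log2 ratio of -1.41. Of the 5 members with enough UMIs there, Tnfsf13b was the 1 past the fold, lower, against 0.741% of all genes. Monocyte-only cells held 8.23 CPM (5.98 to 11.05) in the Crtc2-/- library and 12.5 CPM (8.82 to 17.1) in the Crtc2+/+ library. Their ratio was 0.660, with an interval that includes 1 (0.418 to 1.05). Monocytes outside the macrophage, pDC and T gates, a reading added later, held 7.97 CPM in Crtc2-/- cells and 12.7 CPM in Crtc2+/+ cells, a ratio of 0.626 whose interval stops just short of 1 (0.3998 to 0.985). Cells that were also in the macrophage gate made up 104 of the 971 Crtc2-/- monocytes and 227 of the 826 Crtc2+/+ monocytes.

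The B and pDC gates also read differently with and without their overlap. In the B gate Tnfsf13b was 12.1 CPM in Crtc2-/- cells and 101 CPM in Crtc2+/+ cells, the 1 of 4 measured members past the fold there, against 0.943% of all genes lower past it. In B-only cells it was 4.01 CPM (22 UMIs) in the Crtc2-/- library and 1.95 CPM (4 UMIs) in the Crtc2+/+ library. Of those 22 Crtc2-/- UMIs, 19 lay in the 179 cells without Ighd, where Fcgr4, a myeloid Fc receptor gene, was 849 CPM, against 14.1 CPM in the 89 Crtc2+/+ cells without Ighd, which held 0 Tnfsf13b UMIs. In the pDC gate both ligands were past the fold and lower, 2 of 4 measured members, against 6.63% of all genes. There Tnfsf13b was 1.12 CPM (4 UMIs) in Crtc2-/- cells and 142 CPM (447 UMIs) in Crtc2+/+ cells. Of those 447 UMIs, 443 lay in the 176 Crtc2+/+ cells that were also in the macrophage gate. Without macrophage-gate cells the pDC gate held 1 Tnfsf13b UMI in Crtc2-/- cells and 4 in Crtc2+/+ cells, a ratio of 0.0673 with a counting interval of 0.00137 to 0.680. BAFF transcripts in B cells and pDCs proper were thus near 0 in both libraries.

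Neutrophils, a known BAFF source, showed no gap that the counts could resolve. Tnfsf13b was 32.3 CPM (23.4 to 43.5, 43 UMIs) in 311 Crtc2-/- cells and 23.8 CPM (8.72 to 51.7, 6 UMIs) in 76 Crtc2+/+ cells, with a ratio of 1.36 (0.576 to 3.91). This was the highest Tnfsf13b level of any gate in the Crtc2-/- library, and its interval did not overlap that of Crtc2-/- macrophages. In the Sox5 gate Tnfsf13b was 26.8 CPM in Crtc2-/- cells and 109 CPM in Crtc2+/+ cells, 1 of 3 measured members past the fold and lower against 9.17% of all genes. In its single-gate cells the order turned, at 18.6 CPM (27 UMIs) in Crtc2-/- cells and 12.7 CPM (8 UMIs) in Crtc2+/+ cells. In plasma cells it was not seen, with 0 UMIs in 32 Crtc2-/- cells, which leaves up to 4.32 CPM.

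The whole T gate held 11.9 CPM of Tnfsf13b (187 UMIs) in Crtc2-/- cells and 14.1 CPM (147 UMIs) in Crtc2+/+ cells, but in single-gate T cells the order was the other way. T-only cells held 12.9 CPM of Tnfsf13b (10.995 to 15.0, 168 UMIs) in the Crtc2-/- library and 8.44 CPM (6.58 to 10.7, 70 UMIs) in the Crtc2+/+ library, a ratio of 1.53 (1.15 to 2.05). After thinning, 1.21% of Crtc2-/- cells and 0.787% of Crtc2+/+ cells kept a UMI, with overlapping intervals (0.814 to 1.74 for Crtc2-/- and 0.420 to 1.34 for Crtc2+/+). A split chosen after the values were seen divided these cells by the CD8 genes and by Pdcd1, which encodes the PD-1 receptor of exhausted and activated T cells. CD8 cells with Pdcd1 held 22.2 CPM (17.9 to 27.3, 90 UMIs in 691 cells) in the Crtc2-/- library and 7.61 CPM (3.29 to 15.0, 8 UMIs in 209 cells) in the Crtc2+/+ library. CD8 cells without Pdcd1 held 12.01 CPM in the Crtc2-/- library and 8.64 CPM in the Crtc2+/+ library, and cells without CD8 held 6.18 CPM in Crtc2-/- cells and 8.47 CPM in Crtc2+/+ cells. The macrophage C1q transcripts, read as a gauge of RNA from macrophages, averaged 0.495 UMIs per cell in the Crtc2-/- and 1 UMI per cell in the Crtc2+/+ CD8 cells with Pdcd1. The part of RNA from other cells in these Tnfsf13b values was not tested. In the whole T gate 0 of 4 measured members were past the fold, against 1.31% of all genes in either direction.

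**Figure D3:**
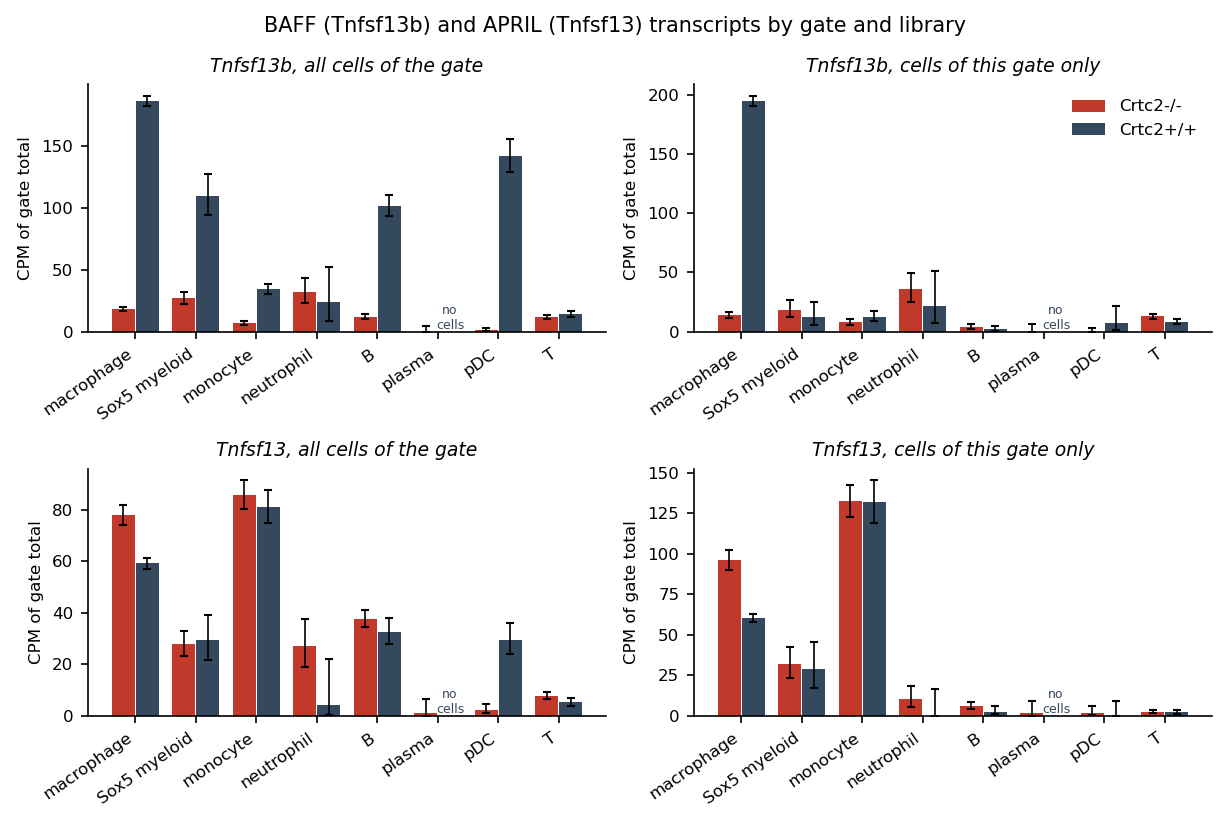
CPM of the gate total (y axis) of Tnfsf13b (top) and Tnfsf13 (bottom) in the 8 gates (x axis), for all cells of the gate (left) and for cells of that gate alone (right), with Crtc2-/- in red, Crtc2+/+ in blue and exact Poisson 95% intervals. The tall Crtc2+/+ Tnfsf13b bars of the B and pDC gates, 101 and 142 CPM, are not seen among single-gate cells.

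Dendritic cells outside the 8 gates followed the macrophages in direction at lower levels. Conventional type 1 dendritic cells, marked by Xcr1, held 9.12 CPM of Tnfsf13b (19 UMIs) in Crtc2-/- cells and 29.1 CPM (38 UMIs) in Crtc2+/+ cells, a ratio of 0.313 (0.170 to 0.557). Type 2 dendritic cells, marked by Cd209a, held 5.97 CPM in Crtc2-/- cells and 15.3 CPM in Crtc2+/+ cells. Endothelial cells held 1.07 CPM in Crtc2-/- cells and 4.37 CPM in Crtc2+/+ cells. C1q transcripts also averaged fewer in the Crtc2-/- type 1 dendritic cells, at 1.22 UMIs per cell against 3.34 in Crtc2+/+ cells, and the part of macrophage RNA in this result was not tested.

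Tnfsf13, the APRIL gene (ENSMUSG00000089669, chromosome 11, 69682846 to 69685784, minus strand), was not lower in Crtc2-/- macrophages. In the macrophage gate it was 78.0 CPM (74.3 to 81.9, 1674 UMIs) in Crtc2-/- cells and 59.3 CPM (57.1 to 61.4, 2958 UMIs) in Crtc2+/+ cells, a ratio of 1.32 (1.24 to 1.40) and a log2 ratio of 0.35, within the fold. In macrophage-only cells it was 96.0 CPM in Crtc2-/- cells and 60.1 CPM in Crtc2+/+ cells, a log2 ratio of 0.60. The difference was smaller in thinned cells, which keep few UMIs. It was also smaller as a mean over unthinned cells, at a log2 ratio of 0.20, and the part of depth was not tested. After thinning, 6.61% of Crtc2-/- macrophages (5.47 to 7.92) and 5.93% of Crtc2+/+ macrophages (5.29 to 6.62) kept a UMI, and these intervals overlap. By UMIs per cell, 54.7% of Crtc2-/- and 62.3% of Crtc2+/+ macrophages held none, 11.7% of Crtc2-/- and 4.88% of Crtc2+/+ macrophages held 3 to 5, and 2.16% of Crtc2-/- and 0.263% of Crtc2+/+ macrophages held at least 6.

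Within Crtc2-/- macrophages Tnfsf13 ran opposite to Tnfsf13b across the splits. Those with Kupffer genes had the lowest Tnfsf13b of the splits and a high Tnfsf13, at 107 CPM (97.4 to 118), against 63.5 CPM (41.5 to 93.1) in the Crtc2+/+ cells of that kind. Macrophages with Sox5 were low in Tnfsf13 in both libraries, at 24.4 CPM (20.9 to 28.3) in Crtc2-/- cells and 30.3 CPM (21.1 to 42.2) in Crtc2+/+ cells. Without them Tnfsf13 was 105 CPM (99.8 to 110.5) in Crtc2-/- cells and 59.9 CPM (57.8 to 62.2) in Crtc2+/+ cells, a ratio of 1.75 and a log2 ratio of 0.72. Macrophages with Cxcl9 or Cxcl10 held 87.5 CPM in Crtc2-/- cells and 47.6 CPM in Crtc2+/+ cells. Macrophages without them held 74.4 CPM in Crtc2-/- cells and 67.5 CPM in Crtc2+/+ cells.

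Monocytes carried the most Tnfsf13 of any gate, and at the same level in both libraries. Monocyte-only cells held 132 CPM (123 to 143) in the Crtc2-/- library and 132 CPM (119 to 145) in the Crtc2+/+ library, a ratio of 1.004 (0.887 to 1.14), with a UMI in 61.8% of Crtc2-/- and 58.0% of Crtc2+/+ cells. Cells with an Ace UMI outside the macrophage and endothelial gates, a reading added later for non-classical monocytes, held 150.5 CPM (139 to 163) in the Crtc2-/- library and 166 CPM (148 to 185) in the Crtc2+/+ library. T-only cells, read as background, held 2.22 CPM in the Crtc2-/- library and 2.05 CPM in the Crtc2+/+ library, with a UMI in 0.878% of Crtc2-/- cells (median depth 4574 UMIs) and 0.965% of Crtc2+/+ cells (median depth 4456 UMIs).

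Elsewhere Tnfsf13 was low or rested on few cells. In the neutrophil gate it was the 1 of 3 measured members past the fold and higher, against 8.11% of all genes, with 36 UMIs in Crtc2-/- cells and 1 UMI in Crtc2+/+ cells. Those 36 UMIs came from 2.57% of the Crtc2-/- neutrophils, 17 of them from 1 cell, and neutrophil-only cells held 11 UMIs in the Crtc2-/- library and 0 in the Crtc2+/+ library. In the pDC gate Tnfsf13 was 2.24 CPM in Crtc2-/- cells and 29.5 CPM in Crtc2+/+ cells. Without macrophage-gate cells it was 1.98 CPM (7 UMIs) in Crtc2-/- pDCs and 2.10 CPM (2 UMIs) in Crtc2+/+ pDCs. Endothelial cells outside the gates held 31.2 CPM (26.8 to 36.2) in the Crtc2-/- library and 19.6 CPM (13.8 to 27.2) in the Crtc2+/+ library.

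Tnfsf13 lies inside a crowded locus. The antisense gene Tnfsf13os (chromosome 11, 69682138 to 69691141, plus strand) covers it whole and gave 278 UMIs in Crtc2-/- macrophages and 318 in Crtc2+/+ macrophages. It is a feature of its own in the matrices. The sources used here do not say whether strand and introns were used in counting. How far reads of neighbouring genes entered the Tnfsf13 counts was not tested. The neighbour Tnfsf12, which encodes the related ligand TWEAK, was 60.0 CPM in Crtc2-/- macrophages and 72.9 CPM in Crtc2+/+ macrophages. A readthrough gene of both, Tnfsfm13, is annotated there but is no feature of the matrices.

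The sources of the ligands were read as the share of a library's UMIs that lay in each gate, which reflects both level and cell number. The macrophage gate held 49.2% of the Tnfsf13b UMIs of the Crtc2-/- library (45.7 to 52.8) and 97.1% of those of the Crtc2+/+ library (96.8 to 97.5). Macrophage-only cells held 17.4% in the Crtc2-/- library and 82.9% in the Crtc2+/+ library. T-only cells held 21.2% in the Crtc2-/- library, above macrophage-only cells there, and 0.733% in the Crtc2+/+ library. Over all cells Tnfsf13b was 10.8 CPM (794 UMIs) in the Crtc2-/- library and 123 CPM (9552 UMIs) in the Crtc2+/+ library, a ratio of 0.0873 (0.0811 to 0.0938). For Tnfsf13 the macrophage gate held 51.1% in the Crtc2-/- library and 77.7% in the Crtc2+/+ library, and the monocyte gate held 27.8% in the Crtc2-/- library and 16.7% in the Crtc2+/+ library. Its level over all cells, 44.5 CPM in the Crtc2-/- library and 49.2 CPM in the Crtc2+/+ library, was close despite the smaller share of macrophages in the Crtc2-/- library.

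**Figure D4:**
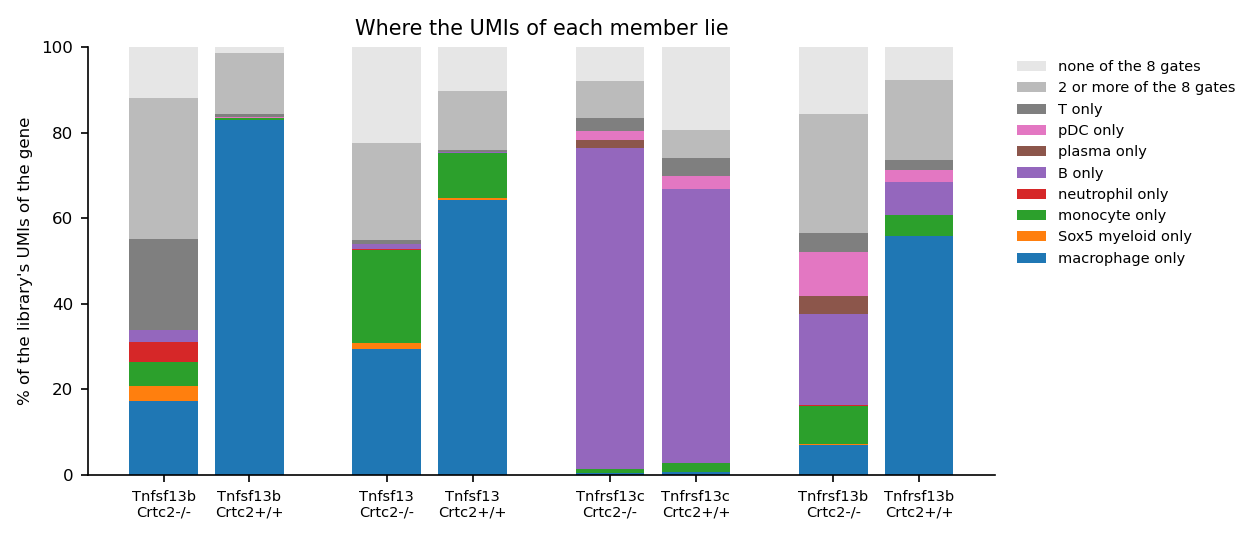
Percent of a library's UMIs (y axis) of Tnfsf13b, Tnfsf13, Tnfrsf13c and Tnfrsf13b (x axis, Crtc2-/- left of Crtc2+/+) that lie in cells of a single gate, of 2 or more gates or of none. Macrophage-only cells make up 17.4% of the Crtc2-/- and 82.9% of the Crtc2+/+ Tnfsf13b bar, whereas B-only cells fill most of both Tnfrsf13c bars.

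The share of macrophages with both ligands lay below the product of the separate shares in Crtc2-/- cells and close to it in Crtc2+/+ cells. Both were found in 6.19% of Crtc2-/- macrophages, where the product of the shares is 7.91%, and in 26.3% of Crtc2+/+ macrophages, where the product is 27.0%. Neither was found in 43.4% of Crtc2-/- and 17.0% of Crtc2+/+ macrophages.

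Turning to the receptors, Tnfrsf13c, the BAFF-R gene (ENSMUSG00000068105, chromosome 15, 82221743 to 82224369, minus strand), marked B cells alike in both libraries. B-only cells held 114 CPM (105 to 123, 623 UMIs) in the Crtc2-/- library and 120.1 CPM (106 to 136, 246 UMIs) in the Crtc2+/+ library, a ratio of 0.945 (0.814 to 1.10). A UMI was found in 34.7% of Crtc2-/- and 33.6% of Crtc2+/+ B-only cells, and after thinning in 11.99% of Crtc2-/- and 11.4% of Crtc2+/+ cells. The macrophage gate, which should lack it, had a UMI in 0.601% of Crtc2-/- cells at a median depth of 11191 UMIs and in 0.121% of Crtc2+/+ cells at 8929 UMIs. In the whole B gate it was 50.7 CPM in Crtc2-/- cells and 48.7 CPM in Crtc2+/+ cells, lower than in B-only cells in both libraries. The B gate held 79.0% of the Crtc2-/- and 67.0% of the Crtc2+/+ UMIs of the gene.

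Among B-only cells the level was lower in cells without Ighd in both libraries. Cells with Ighd, the IgD heavy chain of mature naive B cells, held 121 CPM in the Crtc2-/- library and 127 CPM in the Crtc2+/+ library. Cells without Ighd held 88.5 CPM in the Crtc2-/- library and 87.7 CPM in the Crtc2+/+ library. Those cells were unlike between the libraries, with the myeloid gene Fcgr4 at 849 CPM in Crtc2-/- and 14.1 CPM in Crtc2+/+ cells. The part of maturity in the lower level was not tested. Crtc2-/- plasma cells held 30.4 CPM (19.9 to 44.6, 26 UMIs), below B-only cells. In pDCs outside the macrophage gate it was 12.7 CPM (9.28 to 17.0) in Crtc2-/- cells and 24.1 CPM (15.3 to 36.2) in Crtc2+/+ cells, a ratio of 0.527 (0.312 to 0.912). Type 2 dendritic cells outside the gates were alike in this, at 12.2 CPM (39 UMIs) in Crtc2-/- cells and 20.9 CPM (34 UMIs) in Crtc2+/+ cells, a ratio of 0.587 (0.361 to 0.958).

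Tnfrsf13b, the TACI gene (ENSMUSG00000010142, chromosome 11, 61126755 to 61149372, plus strand), was the most widely spread receptor. Its highest level was in pDCs. Without macrophage-gate cells these held 217 CPM (202 to 233, 768 UMIs) in the Crtc2-/- library and 232 CPM (202 to 265, 221 UMIs) in the Crtc2+/+ library, a ratio of 0.936 (0.805 to 1.09). A UMI was found in 83.0% of these Crtc2-/- cells and 79.8% of these Crtc2+/+ cells, at median depths of 9427 and 9181 UMIs in Crtc2-/- and Crtc2+/+ cells. Endothelial cells outside the gates, a type that should lack TACI, had one in 1.54% of Crtc2-/- cells at a median depth of 10144 UMIs and 0.930% of Crtc2+/+ cells at 7150 UMIs. In the whole pDC gate the gene was 215 CPM in Crtc2-/- cells and 113 CPM in Crtc2+/+ cells, a gap that was not there without the 176 overlapping Crtc2+/+ cells.

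B cells followed, again alike in both libraries. B-only cells held 107 CPM of Tnfrsf13b (98.7 to 116) in the Crtc2-/- library and 115 CPM (101 to 130.4) in the Crtc2+/+ library. Crtc2-/- plasma cells held 172 CPM (145 to 202), with a UMI in 93.8% of them. Tnfrsf13c and Tnfrsf13b were found together in 14.1% of Crtc2-/- B-only cells (12.3% by the product of shares) and in 12.1% of Crtc2+/+ B-only cells (11.1% by the product). Monocyte-only cells held 46.2 CPM of Tnfrsf13b in the Crtc2-/- library and 49.9 CPM in the Crtc2+/+ library, and type 2 dendritic cells outside the gates held 62.5 CPM in the Crtc2-/- library and 62.6 CPM in the Crtc2+/+ library. In these readings of B cells, pDCs, monocytes and type 2 dendritic cells the intervals of the libraries overlapped. In the whole monocyte gate Tnfrsf13b was 75.1 CPM in Crtc2-/- cells and 52.6 CPM in Crtc2+/+ cells, where 196 Crtc2-/- cells and 52 Crtc2+/+ cells were also in the pDC gate.

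In the macrophage gate the intervals stood apart. Tnfrsf13b was 18.7 CPM (17.0 to 20.7, 402 UMIs) in the Crtc2-/- macrophage gate and 42.7 CPM (41.0 to 44.6, 2134 UMIs) in the Crtc2+/+ gate, a ratio of 0.438 (0.393 to 0.488) and a log2 ratio of -0.88, short of the fold. Thinned, 2.22% of Crtc2-/- and 4.23% of Crtc2+/+ macrophages kept a UMI. The gap was narrower outside the Sox5 and Kupffer-type cells. Sox5 macrophages held 7.38 CPM in Crtc2-/- cells and 27.7 CPM in Crtc2+/+ cells, and Kupffer-type macrophages held 10.6 CPM in Crtc2-/- cells and 4.89 CPM (2 UMIs) in Crtc2+/+ cells. Without either kind Tnfrsf13b was 29.0 CPM in Crtc2-/- macrophages and 43.4 CPM in Crtc2+/+ macrophages, a ratio of 0.667 and a log2 ratio of -0.45. Macrophages that also passed the monocyte gate held 41.0 CPM in Crtc2-/- cells and 46.1 CPM in Crtc2+/+ cells, with overlapping intervals.

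T cells had a little Tnfrsf13b, at 9.65 CPM in Crtc2-/- and 8.31 CPM in Crtc2+/+ T-only cells. It lay mostly in cells without CD8, at 19.5 CPM (15.9 to 23.7) in the Crtc2-/- library and 11.7 CPM (8.47 to 15.6) in the Crtc2+/+ library, intervals that did not overlap. In CD8 cells with Pdcd1, where Tnfsf13b was highest among Crtc2-/- T cells, Tnfrsf13b was 1.73 CPM (7 UMIs) in Crtc2-/- cells and 7.61 CPM (8 UMIs) in Crtc2+/+ cells. Cd74 was high in B-only cells, at 10438 CPM in the Crtc2-/- library, but not there alone. Macrophage-only cells held 9858 CPM of it in the Crtc2-/- and 22553 CPM in the Crtc2+/+ library. In T-only cells without CD8 it was 850 CPM in the Crtc2-/- and 363 CPM in the Crtc2+/+ library. In CD8 cells with Pdcd1 it was 159 CPM in the Crtc2-/- and 809 CPM in the Crtc2+/+ library. The part of RNA from other cells in these Tnfrsf13b values was not tested.

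The cells that carried TACI transcripts differed between the libraries although the totals were close. Over all cells Tnfrsf13b was 37.7 CPM (2781 UMIs) in the Crtc2-/- library and 39.6 CPM (3064 UMIs) in the Crtc2+/+ library. The macrophage gate held 14.5% of these UMIs in the Crtc2-/- library and 69.6% in the Crtc2+/+ library. The pDC gate held 27.6% in the Crtc2-/- library and 11.6% in the Crtc2+/+ library, there with the 176 cells also in the macrophage gate. These shares reflect cell number as well as level. The macrophage gate held 18.7% of Crtc2-/- and 52.8% of Crtc2+/+ cells.

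**Figure D5:**
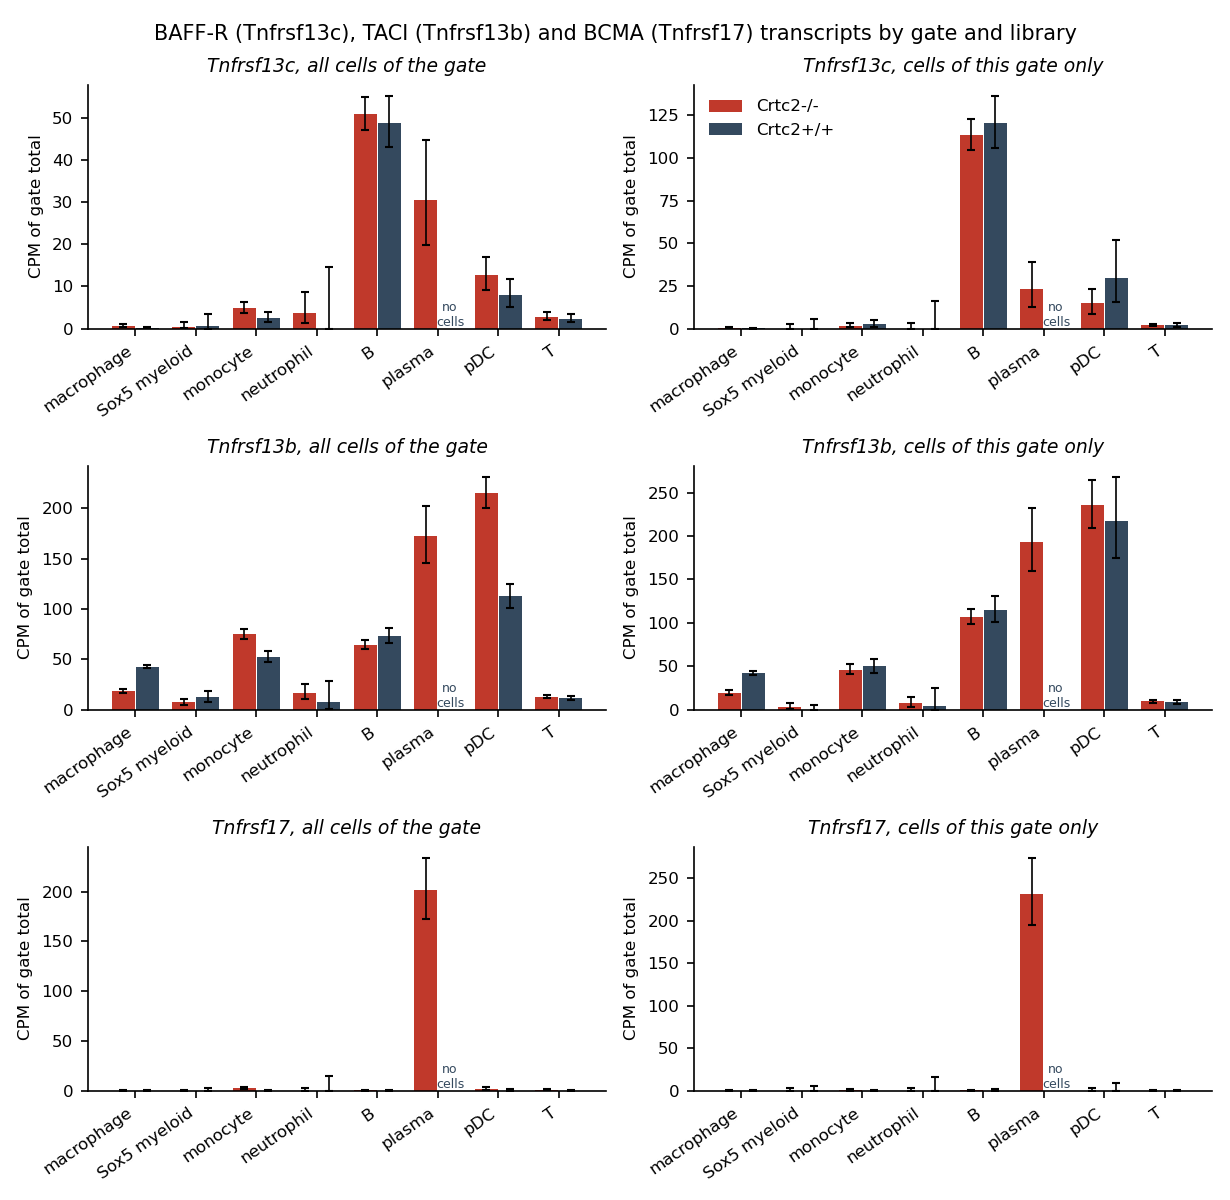
CPM of the gate total (y axis) of Tnfrsf13c, Tnfrsf13b and Tnfrsf17 (rows) in the 8 gates (x axis), for all cells of the gate (left) and cells of that gate alone (right), with Crtc2-/- in red, Crtc2+/+ in blue and exact Poisson 95% intervals. Tnfrsf13c peaks in B cells and Tnfrsf13b in pDCs and plasma cells, and Tnfrsf17 stands out only in the plasma gate, which has no Crtc2+/+ cells.

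Tnfrsf17, the BCMA gene (ENSMUSG00000022496, chromosome 16, 11313812 to 11320074, plus strand), was nearly confined to plasma cells and hence to the Crtc2-/- library. It gave 184 UMIs in 38 Crtc2-/- cells and 3 UMIs in 3 Crtc2+/+ cells. Of the Crtc2-/- UMIs, 172 (93.5%) lay in 27 of the 32 plasma cells, at 201 CPM (172 to 234). The 12 other UMIs were spread over 11 cells. A plasma cell held a median of 3.5 UMIs, the highest cell held 44 and the next 14. Without the highest cell the other 31 plasma cells held 155 CPM. With no Crtc2+/+ cell in the plasma gate the level per plasma cell could not be compared between genotypes.

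The plasma gate was sharp in the Crtc2-/- library. Jchain, which encodes the joining chain of polymeric IgA and IgM, ran from 86 to 2335 UMIs in the 32 cells, and the highest Crtc2-/- cell below the gate held 20. In the Crtc2+/+ library 1 cell held 36 Jchain UMIs and the next held 2. By their most abundant heavy chain 15 plasma cells were Igha, 15 Ighm, 1 Ighg1 and 1 Ighg2c. Igha cells held 374 CPM of Tnfrsf17 (135 UMIs) and Ighm cells 68.6 CPM (29 UMIs). The cell with 44 UMIs was an Igha cell, and without it the other 14 Igha cells held 273 CPM. Tnfrsf13b ran the same way, at 241 CPM in Igha cells and 123 CPM in Ighm cells. Tnfrsf13c was 22.2 CPM in Igha cells and 42.6 CPM in Ighm cells, on only 8 UMIs in Igha and 18 UMIs in Ighm cells. Of the 32 plasma cells 1 held at least 6 Tnfrsf13c UMIs. The proliferation gene Mki67 was found in 9 of the Igha and 7 of the Ighm cells. BCMA and TACI transcripts were found together in 25 of 32 plasma cells, and BCMA and BAFF-R transcripts in 13 of 32. These cells come from 1 library and are no replicates of each other.

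Genes that act around these receptors were read from a list of 25, of which 24 were among the features. In the macrophage gate 2 of 24 were past the fold and higher, against 2.87% of all genes, and 0 were lower, with a median log2 ratio of 0.14 beside 0.02 over all genes. They were Syk, a kinase of immune receptors, at 467 CPM in Crtc2-/- and 166 CPM in Crtc2+/+ macrophages, and Traf1, an adaptor of tumour necrosis factor receptors, at 64.4 CPM in Crtc2-/- and 20.7 CPM in Crtc2+/+ macrophages. Map3k14, which encodes NF-kappa-B-inducing kinase, was 118 CPM in Crtc2-/- macrophages and 70.0 CPM in Crtc2+/+ macrophages. The gap was narrower in macrophage-only cells, at 91.5 CPM in the Crtc2-/- and 71.4 CPM in the Crtc2+/+ library. In B-only cells, where BAFF-R acts, 0 of 23 measured genes were past the fold, against 1.74% of all genes in either direction, with a median of -0.04 beside 0.04 over all genes. There Map3k14 was 77.3 CPM in Crtc2-/- cells and 54.7 CPM in Crtc2+/+ cells. Birc3, a ubiquitin ligase that restrains Map3k14, was 326 CPM in Crtc2-/- B-only cells and 442 CPM in Crtc2+/+ B-only cells. Bcl2, the survival gene, was 328 CPM in Crtc2-/- B-only cells and 435 CPM in Crtc2+/+ B-only cells, and Bcl2l11, which encodes the death protein BIM, was 41.6 CPM in Crtc2-/- and 58.6 CPM in Crtc2+/+ B-only cells. In the monocyte gate Bcl2 was the 1 of 23 past the fold and lower, against 0.741% of all genes. It was 121 CPM in Crtc2-/- cells and 327 CPM in Crtc2+/+ cells of that gate. Of these cells 144 Crtc2-/- and 219 Crtc2+/+ cells also passed the T gate, where Bcl2 was 750 CPM in Crtc2-/- and 1343 CPM in Crtc2+/+ cells. In monocyte-only cells 0 of 21 were past the fold, against 0.978% of all genes in either direction. There Bcl2 was 62.1 CPM in Crtc2-/- cells and 96.8 CPM in Crtc2+/+ cells.

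The genes whose pattern over gates was most like each member were named by Pearson's r of log2 levels over 15 points, the 8 gates in each library without the empty Crtc2+/+ plasma gate. These points share libraries and, through overlapping gates, cells, and r is a description only. For Tnfsf13b they were Dtx4 (0.96), Lhfpl2, Itga8 and Col14a1 (0.93 each) and Stard13 (0.92). For Tnfsf13 they were Rnpep and Lrp1 (0.94 each), Slamf8 and Msr1 (0.93 each) and Ggh (0.92). For Tnfrsf13c they included Ralgps2 (0.95), Bcar3 and Ms4a1 (0.94 each) and Vpreb3 (0.93). For Tnfrsf13b they were Prr5 (0.95), Mef2c and Rnase6 (0.92 each), Nrg2 and Fcrla (0.91 each). Tnfrsf17 was matched by Prg2, Ccr10, Oosp1, Chst1 and Cacna1s, at 0.985 or above, a likeness that rests on the 1 plasma point. With single-gate cells 2, 1, 2, 3 and 4 of the 5 genes recurred for Tnfsf13b, Tnfsf13, Tnfrsf13c, Tnfrsf13b and Tnfrsf17, in that order.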

How the data were processed

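The deposited matrices hold UMI counts per gene and cell, made with Cell Ranger 7.1.0 per the file headers. The submitters' processing notes also name Seurat and the mm10 build, and the labels' protocols name 3′ chemistry with a v2 kit. The use of introns and strand in counting was not given in the sources used here. The matrices held 9242 Crtc2-/- and 9707 Crtc2+/+ barcodes, with 78040008 and 81487425 UMIs.

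Barcodes were kept at 500 or more UMIs, 250 or more detected genes and a mitochondrial share of no more than 20%. Scrublet was run per library with an expected rate of 0.8% per 1000 cells. It removed 268 Crtc2-/- barcodes (2.92%, against 7.34% expected) and 258 Crtc2+/+ barcodes (2.68%, against 7.69% expected), so doublets may remain. The members and all gene lists were chosen with earlier results of these data known. Gates follow the thresholds given with the results, and the Sox5 gate also needed at least 2 UMIs of Csf1r and Lyz2 and under 2 each of the Cd3 and Cd79 genes. Readings called added, the CD8, Pdcd1 and Ace splits, and the B and pDC gates without macrophage-gate cells were chosen after the data were seen.

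Counts were summed per library and gate and given as CPM of the gate's total with exact Poisson 95% intervals. Log2 ratios set Crtc2-/- against Crtc2+/+ with 10 CPM added to each, ratios have exact conditional intervals, and shares of cells have exact binomial (Clopper-Pearson) intervals. A share of 0 was given the limit that 3 counts allow. For thinning, each cell was drawn down to 1000 UMIs and shallower cells were left out. No p-value was computed. A marker was called raised in a gate at a level at least 2 times the median over gates and a UMI in at least 10% of cells. The named genes were the 5 members in all gates, up to 4 genes of the receptor list per gate by size of log2 ratio, and the 5 genes most like each member among those reaching 50 CPM, leaving out gate genes and mitochondrial, ribosomal, haemoglobin, immunoglobulin and T cell receptor segment, sex-linked and predicted genes. One gene that the rule for likeness picked is not reported here. Promoter windows are from RefSeq (GRCm38.p6), in which all 5 members matched by symbol. The summing and the ratios were tested on simulated data. The software was scanpy 1.11.5, matplotlib 3.10.9, scipy 1.17.1, pandas 2.3.3 and numpy 2.4.6 under Python 3.11.15.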

Additional observations from a re-analysis of the deposited data

How the results depend on the processing

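No paired analysis was possible because each genotype has 1 library, and for the same reason no replicate could be left out. Values are log2 ratios, Crtc2-/- over Crtc2+/+. Tnfsf13b in the macrophage gate, -2.79 as reported, was -3.11 in cells of exactly 1 gate, -3.28 with 1 CPM added in place of 10, -2.57 after thinning to 1000 UMIs and -2.96 without the 50 most abundant genes in the total. Tnfsf13 there, 0.35 as reported, was 0.60 in cells of exactly 1 gate, 0.20 as a mean over cells and 0.076 after thinning. Tnfsf13b in the monocyte gate, -1.41 as reported, was -0.30 in cells of exactly 1 gate, -0.78 with gate thresholds doubled, -2.20 with 1 CPM added and -0.80 after thinning. Tnfrsf13c in the B gate, 0.05 as reported, was -0.22 with thresholds doubled. The share of Crtc2-/- Tnfsf13b UMIs from the macrophage gate, 49.2% as reported, was 17.4% in cells of exactly 1 gate, 44.3% with thresholds doubled and 39.0% after thinning. Where the value as reported was past the fold, the sign turned in 5 alternative values. Tnfsf13b in cells of exactly 1 gate was 0.33 for the Sox5 gate and 0.23 for the B gate, and it was 0.086 in the B gate without macrophage-gate cells, an alternative added after seeing the data. Tnfsf13 was -0.24 in the neutrophil gate after thinning and 0.22 in the pDC gate in cells of exactly 1 gate. Values within the fold also changed sign, among them Tnfsf13b in the T gate, -0.14 as reported and 0.31 in cells of exactly 1 gate, and Tnfrsf13c in the pDC gate, 0.34 as reported and -0.68 in cells of exactly 1 gate. The cause was not tested. Keeping called doublets and a mitochondrial limit of 10% moved none of the macrophage, monocyte and B gate values beyond counting error. With called doublets kept Tnfsf13b in the T gate was -0.81, against -0.14 as reported. Few counts limit several readings of Tnfsf13b, with 6 UMIs in the Crtc2+/+ neutrophil gate and 4 in Crtc2+/+ B-only cells.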
